A study of Homo sapiens with 24 samples.

Results

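The comparison described here is between oxaliplatin-resistant and parental HCT116 cells, both with the adenovirus E1A gene induced. It used 6 of the 24 RNA-seq samples of the series, chosen by their labels: 3 samples of HCT116 oxpl-R cells given 0.5 µg/mL doxycycline without oxaliplatin (HCT116 oxpl-R E1A, here the resistant samples) and 3 samples of HCT116 cells given the same (HCT116 E1A, here the parental samples). HCT116 is an established human colorectal cancer cell line, and HCT116 oxpl-R cells were derived from it by the authors through repeated exposure to oxaliplatin, a platinum drug that forms adducts on DNA. Both lines had a TetOn-E1A genotype, in which doxycycline switches on an E1A transgene, and 6 untreated samples of the same 2 lines, 3 of each, were used beside them. The 2 lines are each 1 derivation, so the replicates measure the spread between dishes of a line and not between independently derived resistant lines. No sample of these groups had doxycycline without the transgene, so an effect of E1A cannot be told apart from an effect of doxycycline.

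E1A is the first protein that an adenovirus makes in an infected cell. It binds the RB family of pocket proteins, which releases E2F transcription factors and drives cells towards S phase, and it binds the histone acetyltransferases p300 and CBP, the p400/TRRAP chromatin complex and the C-terminal binding proteins. E1A is also known to sensitise tumour cells to DNA-damaging drugs. The comparison gives the differences between the lines while E1A is present, and, set beside the untreated samples, whether those differences are changed by its induction.

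The transgene was measured first, since it checks the labels. E1A had 22235, 21659 and 21179 estimated counts in parental replicates 1 to 3 and 21976, 15312 and 26098 in resistant replicates 1 to 3, against 175, 141 and 114 counts in untreated HCT116 cells and 161, 222 and 231 in untreated HCT116 oxpl-R cells. Every induced sample thus lay far above every untreated sample, and the induced groups overlapped (log2FC of resistant against parental, -0.08 ± 0.18 SE by the quasi-likelihood test of edgeR, adjusted p = 0.792). Doxycycline raised the transgene by a log2FC of 7.28 ± 0.15 in the parental line and of 6.52 ± 0.24 in the resistant line, a difference with an unadjusted p of 0.00326 and an adjusted p of 1.0. Between the untreated lines the transgene was higher in resistant cells (log2FC 0.62 ± 0.19, adjusted p = 0.0264 by the same test), so the 2 inductions started from unlike levels. The E1A level of resistant replicate 2 was the lowest and that of resistant replicate 3 the highest of the 6 induced samples.

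The samples held 26012760 to 28929139 estimated counts in the parental group and 26421602 to 32388796 in the resistant group. Correlations of log2(CPM + 1) were 0.9958 to 0.998 among parental samples, 0.9866 to 0.9897 among resistant samples and 0.9743 to 0.984 between the lines, and the first principal component of the 6 samples held 77.1% of the variance of the most variable genes. The median coefficient of variation between replicates was 9.19% in the parental and 17.4% in the resistant group, so a difference in a single gene was measured less closely in resistant cells. Summed CPM of 8 colorectal epithelial markers was 5510 to 6010 in parental and 5300 to 6760 in resistant samples, with CDX1 at no more than 3 counts in each sample. Markers of leukocytes summed to 0.265 to 0.864 CPM over both groups, and those of fibroblasts to 17.3 to 39 CPM. In a principal component analysis of the 12 samples with and without doxycycline, resistant replicate 3 stood apart from the other resistant samples with E1A on the second component (7.86 against -10.28 and -9.18), so the counts of a gene list without it are given where they moved by over 1.5 times. Replicate 3 of the untreated HCT116 oxpl-R cells was likewise the highest of its group on that component (14.76 against 2.24 and -2.14).

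Between the lines with E1A, 3562 of 20253 genes tested passed an adjusted p of 0.05 (17.6%), of which 2093 were higher (10.3%) and 1469 lower (7.25%) in resistant cells. DEGs, defined as genes that also had a log2FC above 1 or below -1, numbered 1642 (8.11%), with 1236 upregulated (6.1%) and 406 downregulated (2.0%). The data came in a count table (genes up to SETP6 in the alphabet) and a second table (genes after it), tested separately. Of 17205 genes tested from the count table, 3041 passed (17.7%), 1820 higher (10.6%) and 1221 lower (7.1%), and 1411 were DEGs (8.2%), 1076 upregulated (6.25%) and 335 downregulated (1.95%). Of 3048 from the second table, 521 passed (17.1%), 273 higher (8.96%) and 248 lower (8.14%), and 231 were DEGs (7.58%), 160 upregulated (5.25%) and 71 downregulated (2.33%). A log2FC beyond 2 was reached by 414 upregulated genes (2.04%) and 113 downregulated genes (0.558%), of which 358 (2.08%) and 95 (0.552%) were in the count table and 56 (1.84%) and 18 (0.591%) in the second. The counts of all 3 resistant samples lay outside the range of the 3 parental samples for 1577 of the 1642 DEGs, and for 33.4% of all genes tested (33.2% and 34.9% in the 2 tables). Among the 13272 genes with at least 10 counts on average, 2001 were higher (15.1%) and 1441 lower (10.9%), and the median log2FC was 0.053. These shares are the background for the gene lists that follow, whose members mostly exceed that level. A list with shares near these does not stand out from the genes as a whole. In all that follows, "passed" means an adjusted p under 0.05 over all genes tested, a log2FC is that of resistant against parental cells with E1A and is followed by its SE where one is given, and n is 3 per line. Replicates are labelled as biological replicates, and p-values measure only the spread between them. Genes named as the largest or smallest, of all genes or of a list, were chosen to have no overlap between the lines. A lack of overlap in them thus gives no further support. Leaving out parental replicate 1 or 2 lowered the number of genes past the test in the count table from 3041 to 1420 and 1407, and without resistant replicate 3 it was 4278.

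The genes with the largest upregulation were led by several secreted and cell surface proteins. LCN2, the siderophore-binding protein lipocalin-2, had 14, 5 and 3 counts in the parental samples and 1757, 1319 and 1829 in the resistant samples (log2FC 7.75 ± 0.37, adjusted p = 2.65e-07). Each resistant sample was thus far above each parental sample. ITGB7, an integrin beta chain, had 0, 2 and 4 counts in the parental samples and 330, 238 and 263 in the resistant samples (log2FC 6.98 ± 0.47, adjusted p = 2.64e-06), and TNFRSF10C, a decoy receptor for the death ligand TRAIL, had 5, 6 and 0 counts in the parental samples and 339, 238 and 323 in the resistant samples (log2FC 6.21 ± 0.51, adjusted p = 2.76e-06). In neither gene did the lines overlap.

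The start region of LCN2 is shown because it holds a match to TGANTCA, a loose form of the motif of the AP-1 transcription factor. It spans 250 bases before and 50 after the start of the gene in RefSeq (GRCh38.p14, chr9:128149203-128149502, plus strand), read 5′ to 3′ along the gene, with the motif, searched on both strands as TGANTCA, in capitals.
LCN2: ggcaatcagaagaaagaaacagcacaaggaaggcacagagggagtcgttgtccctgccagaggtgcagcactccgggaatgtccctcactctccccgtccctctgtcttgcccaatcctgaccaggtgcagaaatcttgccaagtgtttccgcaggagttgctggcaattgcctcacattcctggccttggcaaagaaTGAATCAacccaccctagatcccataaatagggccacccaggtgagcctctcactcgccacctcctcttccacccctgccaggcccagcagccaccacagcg
The match, TGAATCA, lies 52 bases before the start. Its middle base is A, where the usual AP-1 site has C or G, so it is not that site. Letters matching TGANTCA, with any middle base, were found in 7.76% of 27305 RefSeq start regions of this length. For genes with at least 10 counts the share was 4.65% of 10442. It was 74 of 903 regions of upregulated DEGs (8.19%) and 11 of 303 regions of downregulated DEGs (3.63%). A match of letters does not show that a factor binds there.

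BMP2, a secreted ligand of the BMP pathway, had 0, 0 and 0 counts in the parental samples and 132, 94 and 142 in the resistant samples, which is at least 38.2-fold higher when the parental level is set to a floor of 3 counts per sample (adjusted p = 7.43e-06). SMIM10, a small membrane protein, had 0, 0 and 0 counts in the parental samples and 545, 565 and 523 in the resistant samples (at least 172-fold higher, adjusted p = 7.02e-08), and RARRES2, the secreted protein chemerin, 0, 0 and 0 counts in the parental samples and 23, 38 and 30 in the resistant samples (at least 9.88-fold higher, adjusted p = 0.000804). These 3 genes had no count in any parental sample and at least 23 in every resistant sample. TFF2, a trefoil factor of gastrointestinal mucus, had 0, 1 and 0 counts in the parental samples and 536, 285 and 376 in the resistant samples (ratio of summed counts after scaling for library size 1120, exact 95% counting interval 201 to 44300, adjusted p = 7.02e-08). IL13RA2, a receptor chain for interleukin-13, had 0, 0 and 2 counts in the parental samples and 86, 114 and 203 in the resistant samples (ratio of summed counts after scaling for library size 190, exact 95% counting interval 52.2 to 1570, adjusted p = 3.99e-05), and CALB1, the calcium-binding protein calbindin, 0, 0 and 1 counts in the parental samples and 109, 88 and 162 in the resistant samples (ratio of summed counts after scaling for library size 338, exact 95% counting interval 60.4 to 13400, adjusted p = 8.11e-06). The intervals cover counting error only.

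Among downregulated genes, those of chromosome Y stood at or next to 0 in resistant cells. RPS4Y1, a ribosomal protein, had 5728, 5878 and 6503 counts in the parental samples and 0, 0 and 0 in the resistant samples (at least 2117-fold lower, adjusted p = 3.15e-08), and KDM5D, a histone demethylase, had 994, 1014 and 561 counts in the parental samples and 0, 0 and 0 in the resistant samples (at least 295-fold lower, adjusted p = 6.56e-07). DDX3Y, an RNA helicase, had 816, 716 and 998 counts in the parental samples and 0, 0 and 1 in the resistant samples, EIF1AY, a translation initiation factor, 613, 638 and 807 counts in the parental samples and 0, 0 and 1 in the resistant samples, and TMSB4Y, a thymosin, 73, 87 and 87 counts in the parental samples and 0, 0 and 0 in the resistant samples. In bulk samples a lower level in each cell and fewer cells with a gene cannot be told apart. All 5 of the Y genes with at least 10 counts on average fell, of 6 tested and 13 listed.

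Of the other genes that fell most, the phosphodiesterase PDE4B, which degrades cAMP, had 1564, 1451 and 1301 counts in the parental samples and 12, 1 and 0 in the resistant samples (log2FC -8.40 ± 0.54, adjusted p = 1.96e-06). Of 19 phosphodiesterases tested 1 passed, PDE4B, with 3 higher and 2 lower at an unadjusted p under 0.05, and its resistant samples spread from 0 to 12 counts. The lower count of phosphodiesterases was 2 without parental replicate 3, 4 without resistant replicate 1 and 3 without resistant replicate 3, and the higher count 1 without resistant replicate 1 or 3. LIPG, endothelial lipase, had 227, 220 and 178 counts in the parental samples and 0, 1 and 0 in the resistant samples (ratio of summed counts after scaling for library size 663, exact 95% counting interval 119 to 26200, adjusted p = 7.77e-07), and TCF21, a transcription factor of mesenchymal development, 104, 137 and 97 counts in the parental samples and 0, 1 and 3 in the resistant samples (ratio of summed counts after scaling for library size 90.2, exact 95% counting interval 34.9 to 333, adjusted p = 1.56e-05). The serotonin receptor subunit gene HTR3B had 59, 55 and 53 counts in the parental samples and 0, 0 and 0 in the resistant samples (at least 19.4-fold lower, adjusted p = 6.78e-05). SLC15A1, the peptide transporter of the intestinal brush border, had 36, 24 and 16 counts in the parental samples and 0, 0 and 0 in the resistant samples (at least 8.81-fold lower, adjusted p = 0.00139).

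**Figure D1:**
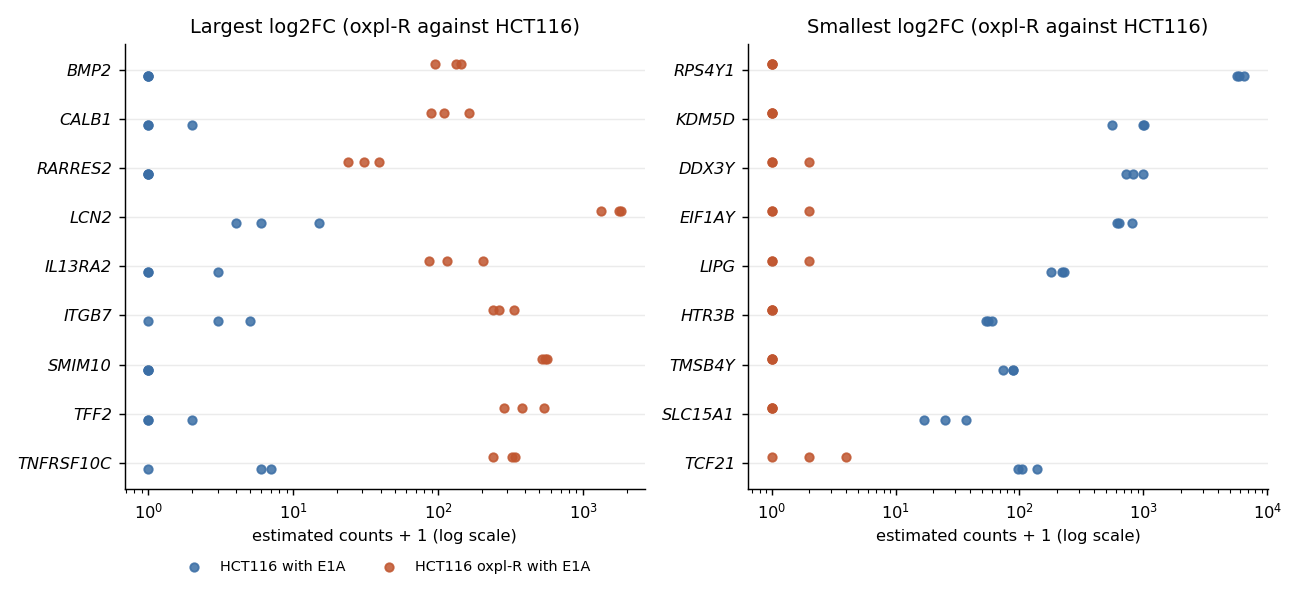
Estimated counts + 1 per sample (log axis) for the protein-coding genes with the largest (left) and smallest (right) log2FC between the lines with E1A, 9 on each side, with 3 parental samples in blue and 3 resistant samples in orange. The 2 colours do not overlap in any gene, which the choice of these genes required. LCN2 reaches 1319 to 1829 counts in resistant samples against 3 to 14 in parental samples.

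Genes of the proteins that E1A binds were measured next. Of 19 tested, 2 were higher and 8 lower, with a median log2FC of -0.42. The pocket protein genes RB1, RBL1 and RBL2 did not pass in either direction, and RB1 had 2239, 2169 and 1560 counts in the parental samples and 2030, 1502 and 1776 in the resistant samples (log2FC -0.20 ± 0.15, adjusted p = 0.4). Of 5 acetyltransferases 1 was higher and 3 lower. CREBBP, which encodes CBP, had 3031, 2977 and 2464 counts in the parental samples and 2224, 1324 and 1687 in the resistant samples (log2FC -0.74 ± 0.14, adjusted p = 0.00406), and EP300, which encodes p300, fell with a log2FC of -0.47. KAT2B was the higher one (log2FC 0.77 ± 0.24, adjusted p = 0.046). It did not pass without any 1 of the parental replicates or without resistant replicate 3, among other alternatives. Within the p400/TRRAP complex, the ATPase RUVBL1 was upregulated (log2FC 0.87 ± 0.18, adjusted p = 0.00594) while its partner RUVBL2 (log2FC -0.73 ± 0.15, adjusted p = 0.00594) and EP400 (log2FC -0.61) fell, and RUVBL2 did not pass without parental replicate 2. The C-terminal binding protein genes CTBP1 and CTBP2 had log2FCs of -0.51 and -0.54, both past the test. The number of lower members rested on single libraries, being 2 without parental replicate 1, 1 without parental replicate 2 and 5 without parental replicate 3, and the higher count was 1 without parental replicate 1, 2 or 3 and 1 without resistant replicate 3.

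Of 27 E2F factors, G1 cyclins and CDK inhibitors, 5 were higher and 4 lower (15.1% and 10.9% among all genes with at least 10 counts). The E2F genes that passed fell: E2F3, an activating member, had 3069, 2945 and 2390 counts in the parental samples and 1604, 1269 and 1205 in the resistant samples (log2FC -1.07 ± 0.14, adjusted p = 0.000407), E2F4, a repressive member, had 5291, 6171 and 5552 counts in the parental samples and 4268, 2589 and 3362 in the resistant samples (log2FC -0.79 ± 0.14, adjusted p = 0.00323), and E2F7 had a log2FC of -0.73. TFDP2, a dimerisation partner of E2F, rose (log2FC 1.27 ± 0.22, adjusted p = 0.0018). None of the 10 G1 cyclins and kinases tested passed in edgeR's test, with 1 higher and 1 lower at an unadjusted p under 0.05. Of 7 inhibitors of cyclin-dependent kinases 4 were higher (CDKN1A, 1.52; CDKN2D, 1.06; CDKN2B, 1.03; CDKN2C, 0.62) and CDKN2A was lower (-0.54). The number of lower members of the list was 2 without parental replicate 1 or 2.

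The larger part of the genes of DNA replication and mitosis did not pass. Of 41 replication genes 5 were higher and 7 lower. Among all genes with at least 10 counts the shares were 15.1% higher and 10.9% lower. PCNA, the sliding clamp, had 8426, 8003 and 8296 counts in the parental samples and 19688, 21292 and 14619 in the resistant samples (log2FC 1.15 ± 0.19, adjusted p = 0.002), and MCM3, a subunit of the replicative helicase, 16968, 17818 and 11675 counts in the parental samples and 10938, 8344 and 7548 in the resistant samples (log2FC -0.82 ± 0.17, adjusted p = 0.00594). The clamp was above and the helicase subunit below the parental range in each resistant sample. Of 38 mitotic genes 1 was higher, PTTG1, the separase inhibitor securin (log2FC 1.10 ± 0.21, adjusted p = 0.00371), and 7 were lower. These included KIF11, the kinesin that separates spindle poles, with 1480, 1427 and 1054 counts in the parental samples and 543, 425 and 673 in the resistant samples (log2FC -1.29 ± 0.20, adjusted p = 0.000988), and the condensin subunit NCAPD2 (log2FC -1.19 ± 0.17, adjusted p = 0.000692). The replication counts were 2 without parental replicate 1 or 2 and 2 without resistant replicate 2 for higher members and 1 without parental replicate 1 or 2 and 12 without resistant replicate 3 for lower ones. For mitotic genes the lower count was 3 without parental replicate 1 or 2, 4 without parental replicate 3 and 16 without resistant replicate 3, and the higher count 3 without resistant replicate 1, 2 without resistant replicate 2 and 4 without resistant replicate 3.

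Target genes of the tumour suppressor p53 moved in 1 direction: of 30 tested, 15 were higher and 0 lower, with a median log2FC of 0.63 and with 20 higher and 0 lower at an unadjusted p under 0.05. CDKN1A, which encodes the cell cycle inhibitor p21, had 5988, 5911 and 5021 counts in the parental samples and 21344, 12999 and 16045 in the resistant samples (log2FC 1.52 ± 0.15, adjusted p = 4.01e-05). BAX, the pore-forming effector of apoptosis, had 920, 999 and 1028 counts in the parental samples and 4171, 2862 and 3411 in the resistant samples (log2FC 1.78 ± 0.15, adjusted p = 1.18e-05). Neither gene overlapped between the lines. The kinase PLK2 (log2FC 2.34 ± 0.17, adjusted p = 5.22e-06) and the damage-recognition factor DDB2 (log2FC 1.28 ± 0.14, adjusted p = 7.75e-05) rose, as did MDM2, the ubiquitin ligase that restrains p53 (log2FC 0.66). The members that rose also include TNFRSF10C, a decoy receptor that does not carry a death signal. Across the processing alternatives 11 to 18 members were higher and 0 lower, DESeq2 included.

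Genes of apoptosis were measured in 30 BCL2 family members and caspases, of which 5 were higher and 4 lower. Beside these stand 15.1% higher and 10.9% lower among all genes with at least 10 counts. CASP10, an initiator caspase of death receptors, had 84, 46 and 69 counts in the parental samples and 5, 19 and 4 in the resistant samples (log2FC -2.79 ± 0.58, adjusted p = 0.00652), while CASP8, its paralogue, had a log2FC of 0.79. BMF, a BH3-only protein, was lower (log2FC -1.14 ± 0.32, adjusted p = 0.0289), and did not pass without any 1 of the 3 parental replicates. The effector BAK1 had a log2FC of -0.53, in the opposite direction to BAX. The higher count was 1 without parental replicate 1, 2 without parental replicate 2, 3 without parental replicate 3, 3 without resistant replicate 1 and 2 without resistant replicate 2, and the lower count 2 without parental replicate 1 or 2.

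In DNA repair, which removes platinum adducts and crosslinks, 3 of 53 genes were higher and 5 lower (15.1% and 10.9% among all genes with at least 10 counts). Besides DDB2, RAD51C of homologous recombination (log2FC 0.97 ± 0.24, adjusted p = 0.0144) and the translesion polymerase gene POLH (0.62) were higher. ERCC2, a helicase of nucleotide excision repair, had 2619, 2738 and 2238 counts in the parental samples and 1916, 1211 and 1450 in the resistant samples (log2FC -0.78 ± 0.14, adjusted p = 0.00273), and RAD54L, a recombination ATPase, 1317, 1328 and 1124 counts in the parental samples and 783, 640 and 690 in the resistant samples (log2FC -0.86 ± 0.15, adjusted p = 0.00279). RAD51C did not pass without parental replicate 1 or 2. The lower count was 9 in DESeq2 and 11 on the genes that filterByExpr keeps. With a trend on transcript length removed it was 8, and with a trend on GC content removed 12. The lower count was 18 without resistant replicate 3, and the higher count 1 without parental replicate 1 or 2.

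Of 59 redox genes 15 were higher and 5 lower. The genes singled out by the authors for their redox function were chosen by them on the untreated samples, and the 6 samples with E1A were not part of that choice. SOD1, cytosolic superoxide dismutase, had 6431, 6950 and 8107 counts in the parental samples and 23150, 26389 and 14742 in the resistant samples (log2FC 1.5 ± 0.25, adjusted p = 0.00111). Each resistant sample was above each parental sample. GSR, glutathione reductase, had 11304, 11558 and 8732 counts in the parental samples and 4690, 3303 and 3771 in the resistant samples (log2FC -1.46 ± 0.14, adjusted p = 3.88e-05), and CHAC1, which degrades glutathione, 1476, 1742 and 1376 counts in the parental samples and 669, 387 and 394 in the resistant samples (log2FC -1.72 ± 0.18, adjusted p = 8.14e-05). Among 26 genes of the glutathione system 9 were higher, with log2FCs of 1.07 for the cystine transporter SLC7A11, 0.67 for GCLM, a subunit of the rate-limiting ligase of glutathione synthesis, and 1.32 and 1.05 for the microsomal transferases MGST2 and MGST1. Of genes that supply NADPH, PGD of the pentose phosphate pathway was lower (-0.62). The transcription factor gene NFE2L2, which encodes NRF2, was lower as well (-0.71), while its target NQO1 was higher (1.14).

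Catalase, CAT, had 2932, 2896 and 2307 counts in the parental samples and 4611, 3068 and 4308 in the resistant samples (log2FC 0.52 ± 0.14, adjusted p = 0.025), and did not pass without parental replicate 1, 2 or 3 or resistant replicate 3. For GPX3, the secreted glutathione peroxidase, the parental samples spread from 0 to 47 counts and the resistant samples from 6 to 55, and no difference was detectable (log2FC 0.10 ± 1.00, adjusted p = 0.966). The number of higher redox genes was 7 without parental replicate 1 or 2.

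Of 30 genes of xenobiotic metabolism 13 were higher and 1 lower, with a median log2FC of 0.65, or of 0.44 with genes at or under 3 counts in 1 line set to their bound. The aldo-keto reductase AKR1C3 had 39, 31 and 27 counts in the parental samples and 140, 154 and 241 in the resistant samples (log2FC 2.45 ± 0.31, adjusted p = 0.000306). AKR1C1 (1.87), AKR1B10 (1.78) and AKR1C2 (log2FC 1.48 ± 0.45, adjusted p = 0.0408) were also higher. The AKR1C genes are near-identical in sequence, so the division of reads among them is uncertain, and AKR1C2 did not pass without any 1 of the parental replicates or without resistant replicate 2. AHR, the receptor for aromatic hydrocarbons, had 1680, 1614 and 1189 counts in the parental samples and 6112, 4701 and 4950 in the resistant samples (log2FC 1.79 ± 0.15, adjusted p = 1.04e-05), and its targets TIPARP, AHRR and ALDH3A1 had log2FCs of 0.96, 0.72 and 1.60. CBR3, a carbonyl reductase, had 82, 89 and 83 counts in the parental samples and 364, 362 and 336 in the resistant samples (log2FC 2.04 ± 0.22, adjusted p = 9.35e-05). The higher count was 7 without parental replicate 1 or 2, and the lower count 0 without parental replicate 1 or 2.

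Nuclear genes for the mitochondrial respiratory complexes and genes for cytosolic ribosomal proteins were the largest groups with no lower member in edgeR's test on all 6 samples. Of 71 OXPHOS subunits 26 were higher and 0 lower (median log2FC 0.55), among them 15 of 37 subunits of complex I and 6 of 17 of the ATP synthase. NDUFB5, a subunit of complex I, had 1371, 1347 and 1537 counts in the parental samples and 4363, 4880 and 3920 in the resistant samples (log2FC 1.61 ± 0.19, adjusted p = 0.000158), and ATP5F1C, the gamma subunit of the ATP synthase, 2880, 2578 and 3672 counts in the parental samples and 8609, 13475 and 7081 in the resistant samples (log2FC 1.68 ± 0.29, adjusted p = 0.00229). In both genes the lines did not overlap. NDUFA2 had log2FC 1.15 ± 0.19, adjusted p = 0.00199. NDUFB7 had log2FC 0.69 ± 0.15, adjusted p = 0.0075 and did not pass without parental replicate 1 or 2. None of the 13 subunits encoded by the mitochondrial genome passed in edgeR's test, with 3 higher at an unadjusted p under 0.05. For these the higher count was 2 in DESeq2, 2 with the replicate block and 1 without parental replicate 3, 1 without resistant replicate 1 and 4 without resistant replicate 3. At an unadjusted p under 0.05 the nuclear subunits held 40 higher and 3 lower, and the lower count was 1 in DESeq2, 1 with the trend on transcript length removed, 2 on the genes that filterByExpr keeps, 3 with the trend on GC content removed and 1 without resistant replicate 1 or 3. Their higher count was 11 without parental replicate 1, 12 without parental replicate 2, 14 without resistant replicate 2 and 47 without resistant replicate 3.

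Of 81 ribosomal protein genes 28 were higher and 0 lower (median log2FC 0.65), with 21 of 48 in the large and 7 of 33 in the small subunit. RPL22L1, a paralogue of a large-subunit protein, had 9536, 9457 and 12966 counts in the parental samples and 36515, 43354 and 27194 in the resistant samples (log2FC 1.72 ± 0.25, adjusted p = 0.000738), and RPS27L, a p53-responsive paralogue of a small-subunit protein, 714, 809 and 1087 counts in the parental samples and 3741, 4153 and 2239 in the resistant samples (log2FC 1.93 ± 0.27, adjusted p = 0.000588). RPSA, which also serves as a laminin receptor, had a log2FC of 1.5. At an unadjusted p under 0.05, 52 were higher and 1 lower, and the lower count was 1 in DESeq2, 1 on the genes that filterByExpr keeps and 1 without resistant replicate 1 and 3 without resistant replicate 3. The higher count was 6 without parental replicate 1, 9 without parental replicate 2, 14 without resistant replicate 2 and 52 without resistant replicate 3, and 13 on the genes that filterByExpr keeps. Ribosomal protein genes took 8.85%, 9.11% and 11.1% of all counts in parental replicates 1, 2 and 3 and 12.3%, 15.7% and 12.9% in resistant replicates 1, 2 and 3, and short transcripts moved with the lists: the median log2FC over all genes with at least 10 counts was 0.104 among the 25% of genes with the shortest transcripts and -0.065 among the 25% with the longest, and 0.151 among the 25% with the lowest and -0.123 among the 25% with the highest GC content. With a trend on transcript length removed from each sample 27 ribosomal protein genes were higher, and with a trend on GC content removed 20. The part of RNA quality or library preparation in these groups was not tested.

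**Figure D2:**
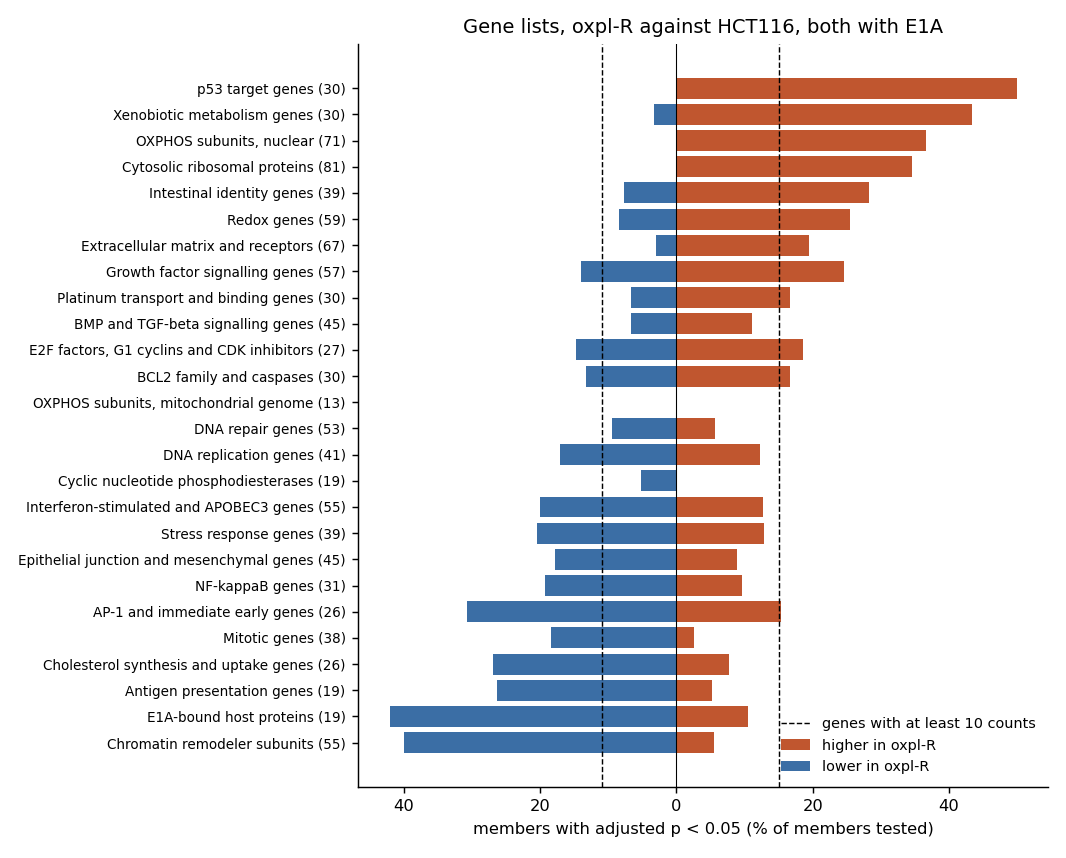
Share of the tested members of each gene list (number tested in parentheses) that passed the test between the lines with E1A, to the right for members higher and to the left for members lower in resistant cells, in percent. Dashed lines mark the shares among all genes with at least 10 counts on average, 15.1% higher and 10.9% lower. The p53 target, OXPHOS and ribosomal protein lists have no bar to the left, and the chromatin remodeler list has 22 of 55 members to the left.

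Subunits of chromatin remodelers, which slide or evict nucleosomes, were measured in 55 genes, of which 3 were higher and 22 lower, with a median log2FC of -0.45, beside 15.1% higher and 10.9% lower among all genes with at least 10 counts. In SWI/SNF, 11 of 24 were lower, including the ATPase SMARCA4 (-0.53) and the DNA-binding subunit ARID1A (-0.69). HDAC2, a histone deacetylase of the NuRD complex, had 5472, 4906 and 4876 counts in the parental samples and 1809, 2572 and 2478 in the resistant samples (log2FC -1.15 ± 0.21, adjusted p = 0.00308), and SRCAP, which deposits the histone variant H2A.Z, 2025, 2238 and 1382 counts in the parental samples and 1154, 594 and 1086 in the resistant samples (log2FC -1.12 ± 0.20, adjusted p = 0.00219). Both genes were below the parental range in each resistant sample. INO80C was higher (log2FC 1.32 ± 0.23, adjusted p = 0.00262). The lower count was 11 without parental replicate 1 and 9 without parental replicate 2, and the higher count 1 without parental replicate 1, 2 or 3 and 1 without resistant replicate 2.

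The interferon-stimulated genes were split by family. Of 55 tested, 7 were higher and 11 lower, but of the 7 APOBEC3 genes, which encode cytidine deaminases that act on single-stranded DNA, 5 were higher and 0 lower, also at an unadjusted p under 0.05. APOBEC3H had 14, 20 and 14 counts in the parental samples and 139, 113 and 264 in the resistant samples (log2FC 3.4 ± 0.38, adjusted p = 0.000117), APOBEC3D 32, 44 and 49 counts in the parental samples and 168, 224 and 249 in the resistant samples (log2FC 2.35 ± 0.31, adjusted p = 0.000376), and APOBEC3C, APOBEC3F and APOBEC3G had log2FCs of 2.04, 1.91 and 1.79. These genes lie in 1 cluster on chromosome 22 and are similar in sequence. APOBEC3B had 648, 655 and 502 counts in the parental samples and 922, 629 and 725 in the resistant samples and did not pass (log2FC 0.30 ± 0.17, adjusted p = 0.279). BST2, which tethers enveloped viruses to the cell, had 72, 60 and 46 counts in the parental samples and 13, 19 and 7 in the resistant samples (log2FC -2.18 ± 0.43, adjusted p = 0.00524), and OAS1, a sensor of double-stranded RNA, 51, 29 and 42 counts in the parental samples and 15, 6 and 14 in the resistant samples (log2FC -1.86 ± 0.45, adjusted p = 0.0149). OAS1 did not pass without parental replicate 1 or 3. The lower count of the list was 5 without parental replicate 1 and 7 without parental replicate 2.

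In antigen presentation 1 of 19 genes was higher and 5 lower. B2M, the light chain of MHC class I, had 7118, 7810 and 10042 counts in the parental samples and 21613, 22942 and 15361 in the resistant samples (log2FC 1.23 ± 0.23, adjusted p = 0.00338), while TAPBP, which loads peptide onto class I, had 3743, 3793 and 2627 counts in the parental samples and 1820, 919 and 1332 in the resistant samples (log2FC -1.45 ± 0.19, adjusted p = 0.00017) and ERAP1, which trims the peptides, 320, 338 and 206 counts in the parental samples and 174, 83 and 101 in the resistant samples (log2FC -1.33 ± 0.25, adjusted p = 0.00381). The light chain and its loading factors thus moved in opposite directions. The lower count was 3 without parental replicate 1 and 2 without parental replicate 2.

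Genes of intestinal identity were higher in 11 and lower in 3 of 39 tested. MUC13, a transmembrane mucin of the gut epithelium, had 5, 5 and 8 counts in the parental samples and 513, 303 and 285 in the resistant samples (log2FC 5.84 ± 0.33, adjusted p = 6.99e-07), and the adhesion molecule CEACAM1 had 29, 28 and 12 counts in the parental samples and 428, 249 and 242 in the resistant samples (log2FC 3.69 ± 0.31, adjusted p = 1.5e-05). Neither gene overlapped between the lines. The start region of MUC13 (RefSeq, GRCh38.p14, chr3:124934702-124935001, minus strand), taken as for LCN2, holds the AP-1 motif TGAGTCA, in capitals, 178 bases before the start.
MUC13: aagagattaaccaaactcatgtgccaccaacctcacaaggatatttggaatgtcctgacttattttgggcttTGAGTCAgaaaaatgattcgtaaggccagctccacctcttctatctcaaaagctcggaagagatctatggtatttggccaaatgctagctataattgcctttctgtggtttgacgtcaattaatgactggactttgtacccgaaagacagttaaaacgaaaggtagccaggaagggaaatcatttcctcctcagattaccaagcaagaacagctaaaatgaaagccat
CDX2, a transcription factor of the intestine, was higher (log2FC 1.16). The list's higher count was 7 without parental replicate 2, 6 without parental replicate 3 and 7 without resistant replicate 2, and its lower count 1 without parental replicate 1 or 3 and 0 without parental replicate 2.

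Matrix genes and their receptors were higher in 13 and lower in 2 of 67 tested (median log2FC 0.358), the higher count being 8 without parental replicate 1 and the lower count 1 without parental replicate 1, 4 without parental replicate 3, 4 without resistant replicate 1 and 9 without resistant replicate 3. The higher members were 6 of 23 collagens, 4 of 19 laminins and other matrix proteins and 3 of 25 integrins. They include ITGB7, given above (log2FC 6.98 ± 0.47, adjusted p = 2.64e-06). The 2 lower members were a laminin chain and a collagen chain. LAMB1, a laminin beta chain, had 1442, 1606 and 1024 counts in the parental samples and 885, 490 and 566 in the resistant samples (log2FC -1.12 ± 0.19, adjusted p = 0.00201), and COL6A3, a collagen chain, 50, 41 and 23 counts in the parental samples and 4, 4 and 11 in the resistant samples (log2FC -2.56 ± 0.55, adjusted p = 0.00787) and did not pass without parental replicate 1. Of 45 junction and mesenchymal genes 4 were higher and 8 lower. By role, 0 of 29 junction genes were higher and 6 lower (median log2FC -0.356). Of 16 mesenchymal genes 4 were higher and 2 lower (median log2FC 0.093). NEDD9, an adhesion scaffold of migrating cells, had 37, 17 and 14 counts in the parental samples and 1533, 1040 and 952 in the resistant samples (log2FC 5.65 ± 0.33, adjusted p = 8.71e-07). SNAI2, a transcription factor that represses E-cadherin, was higher (log2FC 1.86 ± 0.41, adjusted p = 0.00738), and CDH1, which encodes E-cadherin, lower (log2FC -0.50). The tight junction gene CGN was lower (log2FC -1.05 ± 0.17, adjusted p = 0.00134). The lower count of this list was 2 without parental replicate 1 or 2 and 17 without resistant replicate 1.

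Of 57 growth factor signalling genes 14 were higher and 8 lower (15.1% and 10.9% among all genes with at least 10 counts). Of the ligands of ERBB receptors, EPGN, epigen, had 4, 2 and 2 counts in the parental samples and 32, 45 and 74 in the resistant samples (log2FC 4.18 ± 0.58, adjusted p = 0.000535) and NRG1, neuregulin, had a log2FC of 4.15, while AREG, amphiregulin, had -1.07. The receptors NRP1 and NRP2, which bind semaphorins and VEGF, had log2FCs of 2.28 and 2.94. In the WNT pathway, TCF7L2, its transcription factor, and NOTUM, a secreted inhibitor and target, were lower (log2FC -1.39 ± 0.18, adjusted p = 0.00018 and log2FC -1.89 ± 0.24, adjusted p = 0.000356). The lower count was 5 without parental replicate 1, 3 without parental replicate 2 and 14 without resistant replicate 1. BMP and TGF-beta signalling genes were higher in 5 and lower in 3 of 45, beside the same 15.1% and 10.9%. They included GDF15, a stress-induced ligand (log2FC 2.33 ± 0.21, adjusted p = 2.47e-05), BMP6 (log2FC -1.18 ± 0.20, adjusted p = 0.0024) and the target ID3 (log2FC -0.80 ± 0.18, adjusted p = 0.00984). ID3 did not pass without parental replicate 2, and the higher count of that list was 8 without resistant replicate 3, its lower count being 1 without parental replicate 2, 6 without resistant replicate 1 or 3 and 5 without resistant replicate 2.

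Of 26 AP-1 and immediate early genes 4 were higher and 8 lower, and the lower ones included NR4A2, an orphan nuclear receptor, with 615, 659 and 431 counts in the parental samples and 225, 96 and 100 in the resistant samples (log2FC -2.09 ± 0.27, adjusted p = 0.000356), and EGR1, with 14347, 14570 and 10206 counts in the parental samples and 6740, 3114 and 5705 in the resistant samples (log2FC -1.39 ± 0.20, adjusted p = 0.000685). Among AP-1 subunits, FOSL1 was higher (log2FC 0.62 ± 0.15, adjusted p = 0.0157) and JUNB lower (log2FC -1.0), and FOSL1 did not pass without any 1 of the parental replicates or without resistant replicate 1. The higher count was 0 without parental replicate 1 or 2, 1 without parental replicate 3, 1 without resistant replicate 1 and 2 without resistant replicate 2. Of 31 NF-kappaB genes 3 were higher and 6 lower (15.1% and 10.9% among all genes with at least 10 counts). NFKB1, a subunit of the factor, had 2344, 2181 and 1446 counts in the parental samples and 1007, 687 and 651 in the resistant samples (log2FC -1.38 ± 0.18, adjusted p = 0.000367). ICAM1, an adhesion molecule for leukocytes, had 105, 60 and 64 counts in the parental samples and 1091, 612 and 747 in the resistant samples (log2FC 3.36 ± 0.26, adjusted p = 6.77e-06), and CSF2, the cytokine GM-CSF, 5, 2 and 0 counts in the parental samples and 90, 45 and 66 in the resistant samples (log2FC 4.72 ± 0.62, adjusted p = 0.000392). These 2 genes moved against the direction of the subunit genes.

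Genes for platinum transport and binding, which carry copper and organic ions, were higher in 5 and lower in 2 of 30. Among all genes with at least 10 counts the shares were 15.1% higher and 10.9% lower, and 22 of the 30 had at least 10 counts on average. ATOX1, a copper chaperone that also binds platinum, had 559, 617 and 682 counts in the parental samples and 2510, 2965 and 3593 in the resistant samples (log2FC 2.27 ± 0.22, adjusted p = 3.49e-05). The cholesterol exporter ABCG1 had 56, 21 and 50 counts in the parental samples and 576, 326 and 467 in the resistant samples (log2FC 3.36 ± 0.34, adjusted p = 6e-05), and the organic anion exporter ABCC2 4013, 3944 and 2534 counts in the parental samples and 2152, 1441 and 1845 in the resistant samples (log2FC -0.98 ± 0.16, adjusted p = 0.00168). The lower count of the list was 1 without parental replicate 1 or 2. None of 8 metallothionein genes tested passed in edgeR's test, and 0 had an unadjusted p under 0.05. Of 26 cholesterol genes 2 were higher and 7 lower, with MVD, an enzyme of the mevalonate pathway, at 4524, 4457 and 3803 counts in the parental samples and 3221, 1571 and 2015 in the resistant samples (log2FC -0.98 ± 0.17, adjusted p = 0.0022), and the lower count was 2 without parental replicate 1 or 2 and 12 without resistant replicate 3 and the higher count 0 without parental replicate 1, 2 or 3, 0 without resistant replicate 1 and 1 without resistant replicate 2. Of 39 stress response genes 5 were higher and 8 lower, beside the same 15.1% and 10.9%. HSPB1, a small heat shock protein, had 9446, 11553 and 8354 counts in the parental samples and 6645, 2872 and 4679 in the resistant samples (log2FC -1.12 ± 0.19, adjusted p = 0.00241), and PHGDH, the first enzyme of serine synthesis, 5573, 5831 and 4929 counts in the parental samples and 15063, 9553 and 11705 in the resistant samples (log2FC 1.11 ± 0.14, adjusted p = 0.000315). The higher count of stress genes was 2 without parental replicate 1, 1 without parental replicate 2, 3 without parental replicate 3, 3 without resistant replicate 2 and 9 without resistant replicate 3, and the lower count 3 without parental replicate 1 or 2 and 15 without resistant replicate 1 or 3.

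The comparison with untreated cells asks whether the line difference was altered by inducing E1A. The 6 untreated samples are not among the 6 samples with E1A. Of 18467 genes tested in both comparisons, 5495 passed between the untreated lines, 2756 higher (14.9%) and 2739 lower (14.8%). A total of 3136 genes passed in both, which is 88.0% of the genes that passed with E1A and 57.1% of those that passed without, and 3134 of them had the same direction. Of DEGs, 1128 were shared (68.7% of those with E1A and 62.8% of those without), 1127 with the same direction. Across the 13272 genes with at least 10 counts on average, the 2 sets of log2FC had a Pearson correlation of 0.872 and a Spearman correlation of 0.881, given as a description over genes, which are not independent replicates.

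**Figure D3:**
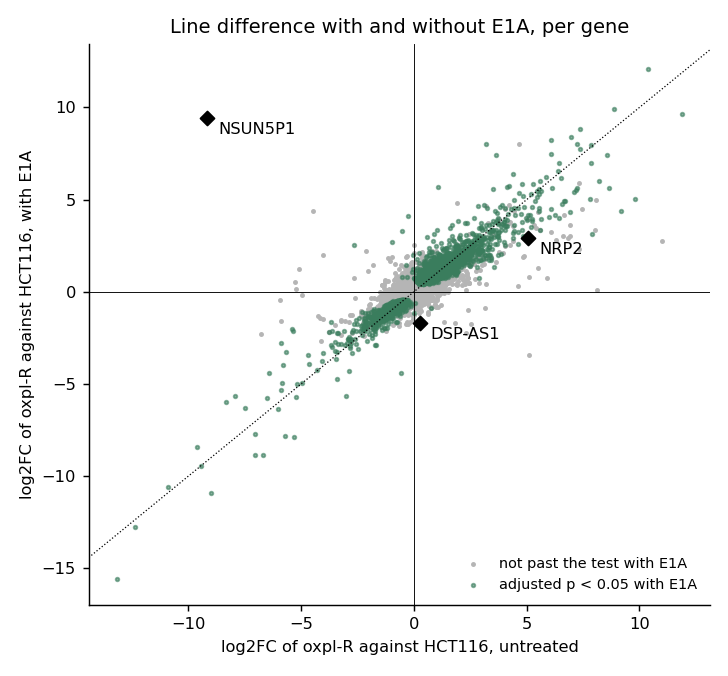
Each point is 1 gene with at least 10 counts on average, with its log2FC of resistant against parental cells when untreated (horizontal axis) and with E1A (vertical axis). Green genes passed with E1A and grey genes did not, the dotted line marks equal values, and black diamonds mark the 3 genes whose difference was altered past the test. Most points lie along the dotted line (Pearson correlation 0.872), with NRP2 below it at 5.08 untreated and 2.94 with E1A.

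The difference of the differences was tested as an interaction of line and doxycycline over the 12 samples. Of the genes in the count table, 3 of 18264 genes passed (0.0164%), with 428 at an unadjusted p under 0.05 (2.34%), and DESeq2 called 6. In the second, 0 of 3206 passed by edgeR (0.0%), with 79 at an unadjusted p under 0.05 (2.46%), 1 called by DESeq2 and 0 by limma. Among genes with at least 10 counts the median SE of the interaction was 0.258 on the log2 scale, against a median size of 0.164. A change of the line difference had to be several times its SE to pass over all genes tested. NEDD9, at -3.09 ± 0.59, did not pass (adjusted p = 0.18 in edgeR's test), so even changes of several times the SE could be missed. Of all 27 gene lists, the growth factor list held 1 member that passed in edgeR's test and the others held 0, with 41 of 1035 listed genes at an unadjusted p under 0.05.

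NRP2 was that member. It encodes neuropilin-2, a co-receptor for semaphorins and VEGF-C. It had 51, 52 and 50 counts in untreated HCT116 cells and 1625, 1681 and 1488 in untreated HCT116 oxpl-R cells, and 174, 234 and 151 counts in the parental samples and 1797, 1304 and 1289 in the resistant samples with E1A. The gene rose with doxycycline in parental cells, where each induced sample was above each untreated one, while the resistant samples with and without doxycycline overlapped. Between the lines the log2FC was 5.08 untreated, and 2.94 ± 0.20 with E1A (adjusted p = 2.46e-06). The interaction was log2 -2.22 ± 0.24, adjusted p = 0.000175, and passed without any 1 of the 12 samples. On the length-scaled table it was -1.33 and did not pass (adjusted p = 0.708), the one exception among the alternatives run. The start region of NRP2 (RefSeq, GRCh38.p14, chr2:205682251-205682550, plus strand), as the protein-coding gene whose line difference was altered, is printed for its sequence.
NRP2: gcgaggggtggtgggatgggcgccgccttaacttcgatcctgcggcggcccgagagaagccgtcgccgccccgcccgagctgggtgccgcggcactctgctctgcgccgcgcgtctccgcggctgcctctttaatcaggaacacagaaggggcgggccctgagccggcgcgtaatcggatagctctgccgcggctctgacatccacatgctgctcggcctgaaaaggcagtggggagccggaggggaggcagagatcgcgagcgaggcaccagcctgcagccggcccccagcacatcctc
It holds neither the AP-1 motif nor an E2F motif, searched on both strands as TTTCCCGC, TTTGGCGC, TTTCGCGC or TTTGCCGC. Among start regions of genes with at least 10 counts 5.32% held such an E2F motif, beside 2.99% of those of upregulated and 3.63% of those of downregulated DEGs.

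DSP-AS1, a non-coding RNA antisense to the desmoplakin gene DSP, had 41, 34 and 54 counts in untreated HCT116 cells and 37, 59 and 48 in untreated HCT116 oxpl-R cells, and 680, 552 and 686 counts in the parental samples and 194, 168 and 257 in the resistant samples with E1A. The lines overlapped when untreated, and with E1A the parental samples lay above the resistant ones (log2FC 0.26 untreated and -1.66 with E1A, interaction log2 -2.01 ± 0.32, adjusted p = 0.0326). The interaction of DSP-AS1 did not pass in 10 of the 12 fits that leave out 1 sample, where its adjusted p ranged from 0.00125 to 0.405, nor on the genes that filterByExpr keeps (0.14), on genes with at least 10 counts (0.13), over all 24 samples (0.372) or on the length-scaled table (0.708). DSP, a component of desmosomes on the opposite strand, had 7936, 8270 and 8455 counts in untreated HCT116 cells and 3955, 4889 and 3369 in untreated HCT116 oxpl-R cells, and 10734, 11223 and 6352 counts in the parental samples and 6822, 4968 and 4469 in the resistant samples with E1A, with an interaction of 0.01. Whether the counting used the strand is not given in the sources used here, so reads of the overlapping genes may not be told apart.

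NSUN5P1, a pseudogene, had 83, 48 and 90 counts in untreated HCT116 cells and 0, 0 and 0 in untreated HCT116 oxpl-R cells, and 0, 0 and 0 counts in the parental samples and 63, 58 and 138 in the resistant samples with E1A, so it was listed at 0 in opposite lines with and without doxycycline (adjusted p of the interaction = 1.93e-06). It has near-identical copies, the gene NSUN5 and the pseudogene NSUN5P2, so the assignment of its reads is uncertain. NSUN5 had 2548, 2715 and 2779 counts in untreated HCT116 cells and 1995, 2569 and 2247 in untreated HCT116 oxpl-R cells, and 2709, 3144 and 2470 counts in the parental samples and 2797, 1726 and 2087 in the resistant samples with E1A, with overlap among all 4 groups.

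The line difference of NEDD9 was smaller with E1A (log2FC 5.65) than untreated (8.66) but the interaction did not pass in edgeR's test (log2 -3.09 ± 0.59, adjusted p = 0.18). It passed in DESeq2 (-3.12, adjusted p = 0.00029), and in edgeR without replicate 1 of untreated HCT116 (-4.95, adjusted p = 0.00244) and without resistant replicate 3 with E1A (-2.94, adjusted p = 0.0142), and in no other alternative run. It had 10, 1 and 1 counts in untreated HCT116 cells and 1624, 1540 and 1456 in untreated HCT116 oxpl-R cells, and 37, 17 and 14 counts in the parental samples and 1533, 1040 and 952 in the resistant samples with E1A. The parental samples with E1A were all above the untreated parental samples. Taken by line, doxycycline changed 1559 genes in the parental line (9.5%) and 13 in the resistant line (0.0755%) in the count table, with 164 (5.6%) and 2 (0.0654%) in the second. These counts are not a test of a difference between the lines, since the resistant samples with E1A varied more between replicates.

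**Figure D4:**
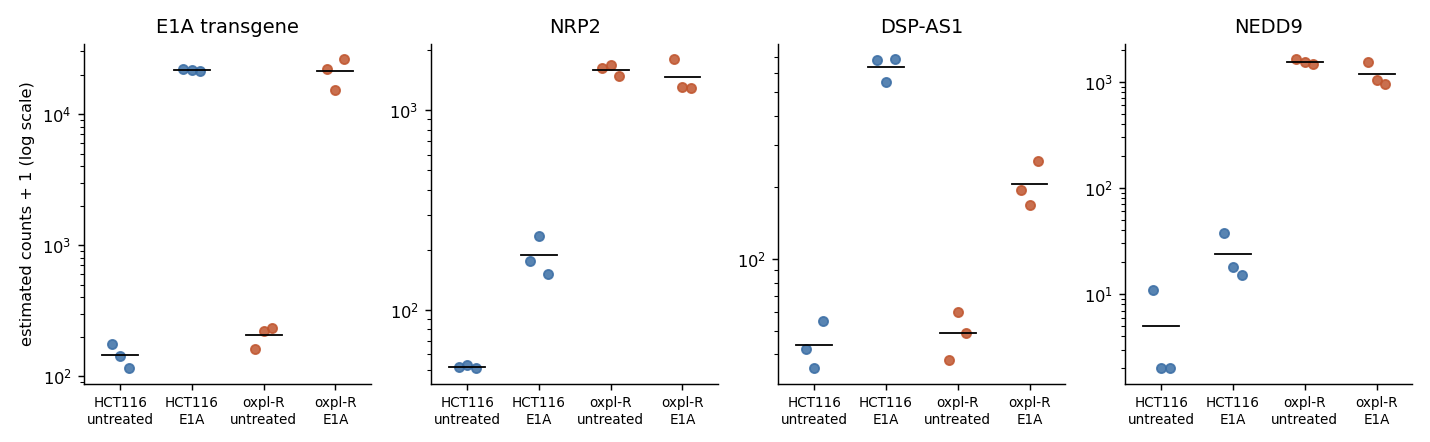
Estimated counts + 1 per sample (log axis, 3 samples per group, black line at the mean) of the E1A transgene, NRP2, DSP-AS1 and NEDD9 in untreated and E1A-induced HCT116 (blue) and HCT116 oxpl-R cells (orange). The transgene rises in both lines, NRP2 goes from 50 to 52 counts to 151 to 234 in HCT116 cells, and DSP-AS1 reaches higher counts in HCT116 than in oxpl-R cells.

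The line difference was uneven along the genome. Genes of chromosome 3 with at least 10 counts had a median log2FC of 0.519, with 271 of 761 higher (35.6%) and 15 lower. Chromosomes 21 (median 0.356, 29.9% higher) and 5 (0.289, 22.9% higher) followed. Chromosome 16 had the lowest median apart from Y, -0.267, with 142 of 600 genes lower (23.7%), and chromosomes 6, 2 and 10 had medians of -0.163, -0.145 and -0.137. On chromosome 10 the genes between 130 and 140 Mb had a median of -0.903, with 10 of 18 lower. In the untreated cells the medians were 0.427 for chromosome 3, 0.299 for chromosome 21, -0.262 for chromosome 16 and -0.917 for the 130 to 140 Mb stretch of chromosome 10. With another scaling of the libraries (RLE) the median of all genes moved from 0.053 to 0.022 and that of chromosome 3 to 0.481.

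**Figure D5:**
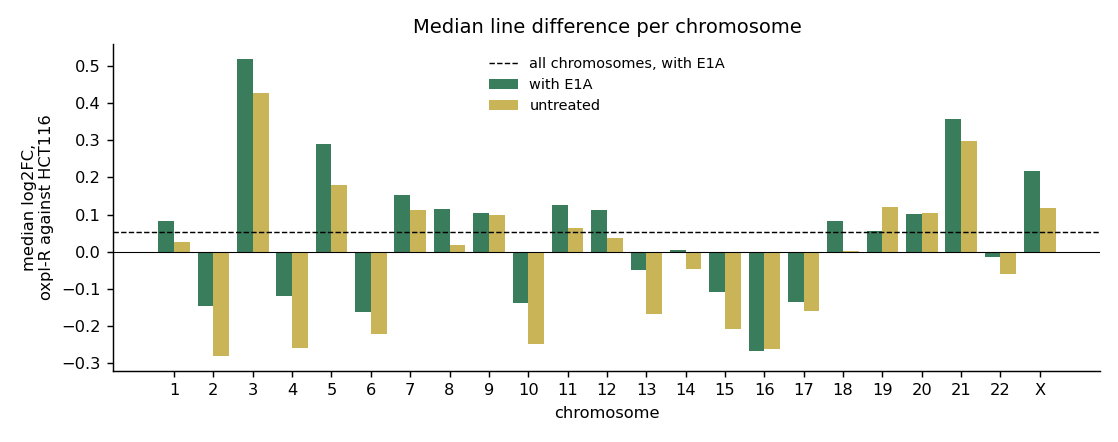
Median log2FC of resistant against parental cells over the genes of each chromosome with at least 10 counts on average, with E1A (green) and untreated (yellow). The dashed line is the median over all chromosomes with E1A, 0.053. Chromosome 3 has the tallest bars, 0.519 with E1A and 0.427 untreated, and chromosome 16 stands at -0.267 and -0.262. Chromosome Y, with 5 genes, is left out of the plot.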

How the data were processed

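RNA of 24 samples (8 groups of 3) was sequenced, and the 3 HCT116 oxpl-R E1A and 3 HCT116 E1A samples were compared, with 6 untreated samples beside them. Total RNA went into an mRNA library kit with paired reads. The dishes with oxaliplatin received doxycycline 3 h before 25 µM of the drug, given for 24 h, and how long the dishes without oxaliplatin were in doxycycline is not given in the sources used here. Per the labels and the methods of the study, the authors trimmed the reads with Trimmomatic, quantified GENCODE 47 transcripts of GRCh38 with Salmon 1.6.0 and used tximport for gene sums.

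Estimated counts were deposited by the authors unnormalised, and were rounded here to whole numbers, for 33113 genes in alphabetical order that end at SETP6. For 4854 genes after SETP6, up to TSC22D3, a second deposited table was used. It is named TPM, but its columns sum to far more than a TPM column would, so its values were read as estimated counts scaled by transcript length. The tables were tested separately, and later genes in the alphabet, TSC22D4 onward, were not used here. Positions are from GENCODE 44 and start regions from RefSeq.

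Groups were taken from the labels. The test was edgeR 4.0.16 (R 4.3.3) quasi-likelihood with TMM scaling, on all genes with at least 1 count among the samples fitted, with Benjamini-Hochberg adjustment over all genes of a table, checked on simulated data. The interaction of line and doxycycline was fitted over the 12 samples without oxaliplatin. Fold bounds set a group at 0 to 3 counts per sample. DESeq2 1.42.0, limma 3.58.1, RLE scaling, low-count filters, a stricter log2FC limit of 2, other sets of samples, a replicate block, the length-scaled table and single left-out replicates were alternatives, and length and GC trends were added after the data were seen.

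Gene lists (27, with 1035 of 1078 genes tested) and comparisons were chosen with earlier results of these data known. Named genes are the largest and smallest log2FC among protein-coding genes past the test without overlap and with at least 10 counts in each sample of the higher line (6 and 6 in the count table, 3 and 3 in the second), the 2 largest and 2 smallest of each list, 10 redox genes named by the study, and protein-coding genes past the interaction test. Other genes, such as MDM2, EP300, DSP-AS1 and NSUN5P1, were picked after their values were seen. Genes that share reads with near-identical copies are uncertain. Some genes that the rule names are not reported here.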

Additional observations from a re-analysis of the deposited data

Results flagged for a closer look

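In 3 genes the difference between the lines with E1A was not the same as without, by the test of the interaction of line and doxycycline over 12 samples (edgeR's quasi-likelihood test). For NRP2 the interaction was -2.22 on the log2 scale (adjusted p = 0.000175), with a smaller line difference with E1A. On the length-scaled table it was -1.33 and did not pass (adjusted p = 0.708). For DSP-AS1 the interaction was -2.01 (adjusted p = 0.0326), with a line difference that appeared with E1A. It did not pass in most fits that leave out 1 sample, over all 24 samples (0.372) or on the length-scaled table (0.708). For the pseudogene NSUN5P1 the fitted interaction was 18.53 (adjusted p = 1.93e-06), a size that depends on the prior count because 2 of the 4 groups were at 0 in every sample. For NSUN5P1 the switch between 0 and 48 to 138 counts went in opposite directions in the lines. For DSP-AS1 the overlap with DSP, and for NSUN5P1 the near-identical copies NSUN5 and NSUN5P2, were not separated, and their part in these values was not tested.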

How the results depend on the processing

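The number of genes past the test depended most on the parental samples. In the count table it was 3041 and ranged from 1407 to 4278 with 1 sample left out (1420 and 1407 without parental replicates 1 and 2), and in the second table it was 521 and ranged from 243 to 687 (263 and 243 without parental replicates 1 and 2). Downregulated DEGs of the count table, 335, ranged from 266 to 626 (626 without resistant replicate 3). With a log2FC limit of 2 the count table held 453 DEGs, 358 higher and 95 lower. The 3 genes past the interaction test became 6 in DESeq2, 1 on the length-scaled table and 2 to 7 with 1 sample left out (7 without resistant replicate 3). In the second table DESeq2 called 1. The highest correlation between the lines was 0.9786 on log2(CPM + 0.1) and 0.9664 on linear CPM. With the replicate number as a block 2665 genes of the count table passed, with 941 higher and 338 lower DEGs. Deviations of same-numbered samples had correlations of 0.213, -0.08 and 0.271, and not every sample correlated best with its own number, so the block pairs samples by number only. Of 107 named genes past the test, 80 passed under every alternative run, 25 lost the call with 1 sample left out and 14 in another alternative, and 0 changed direction. The causes were not tested. At these depths and 3 samples per line, the median SE was 0.206 on the log2 scale for genes with at least 10 counts. A difference of a single gene had to be several times its SE to pass, and smaller ones were not detectable.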

Other observations

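The DEGs between the lines with E1A were unequal in direction across gene types. Of 259 long non-coding RNA genes among the DEGs, 240 were higher in resistant cells, and of 38 pseudogenes 36 were higher, while of 1318 protein-coding DEGs 939 were higher. How all tested genes of each type divided was not measured, so the imbalance cannot be assigned to the types. The median log2FC was 0.14 over all genes tested and 0.053 over those with at least 10 counts on average. In 189 DEGs 1 line was at or under 3 counts in each sample, in 145 of them the parental line.

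The 25% of genes with the lowest GC content deviated from their mean over the 12 samples without oxaliplatin by a median log2 of -0.274, -0.022 and 0.179 in resistant replicates 1, 2 and 3 with E1A.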
